A study of Mus musculus with 12 samples.

Results

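The mRNA of the molecular chaperones and heat shock proteins was examined in neural stem/progenitor cells (NSPCs) of wild-type and Ythdf2 -/- mice. The genes were chosen by symbol: the Hspa, Hspb, Hspd, Hspe, Hsph, Hsp90, Dnaja, Dnajb, Dnajc and Cct genes with numbered names, with Tcp1, Hsf1 and Hsf2. The rule found 83 of the 24525 genes counted. They comprised 28 Dnajc, 13 Dnajb and 4 Dnaja genes, 11 genes of the HSP70 family, 3 of the HSP110 family and 3 of the HSP90 family. A further 9 encoded the cytosolic chaperonin CCT or its relative Cct6b, 8 were small heat shock protein genes by name, 2 encoded HSP60 and HSP10 and 2 were heat shock transcription factors.

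Chaperones bind unfolded or partly folded proteins and help them reach or regain their native shape. HSP70 proteins do so in cycles of ATP hydrolysis that J-domain proteins (DNAJA, DNAJB and DNAJC) start and HSP110 proteins reset by nucleotide exchange, while HSP90 acts late on kinases and steroid receptors and the ring-shaped CCT folds actin and tubulin. HSP60 with its lid HSP10 works in the same way inside mitochondria. When unfolded proteins accumulate, heat shock factor 1 binds heat shock elements in promoters and raises the inducible members, whereas the constitutive members are abundant in any growing cell.

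Poly(A) RNA of the 6 input libraries was analysed, 3 wild type (WT1 to WT3) and 3 Ythdf2 -/- (KO1 to KO3), each from C57BL/6 forebrain NSPCs of E14.5 embryos at the first passage. Both genotypes were grown without further treatment as neurospheres with EGF, bFGF, N2 and B27. Ythdf2 encodes a cytoplasmic reader of N6-methyladenosine (m6A) that promotes the decay of mRNAs carrying it. In the knockout, the 5′ UTR and exon 1 had been flanked by LoxP sites and removed in all tissues by a ubiquitous Cre, so that the cultures came from embryos that had lacked Ythdf2 throughout. What each embryo or culture contributed to a library is not given in the sources used here, and p-values measure the spread between these libraries. The 6 m6A-immunoprecipitated samples were not analysed here.

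The libraries held 11029827 to 13185778 counted reads. Ythdf2 itself had 71.9, 73.3 and 91.4 counts per 1000000 counted reads (CPM) in WT1, WT2 and WT3 and 11.7, 14.7 and 11.1 in KO1, KO2 and KO3, a log2 fold change of -2.66 ± 0.18 (SE, adjusted p = 0.0547 in edgeR). Without WT3 the log2 fold change of Ythdf2 was -2.54 ± 0.14 (adjusted p = 0.0203 in edgeR). WT3 stood apart from every other library, at 91.0 on the first principal component of all genes where the others lay between -30.6 and -6.04. Summed markers of astrocytes were at 6475 CPM in WT3 and 1220 to 2767 in the rest, those of the oligodendrocyte lineage at 4200 against 1731 to 2164, those of neurons at 2090 against 1120 to 1355, and those of neural progenitors at 5976 against 8507 to 9460. The mesenchymal markers, of which 2 of 7 had enough reads to be tested, summed to 32.7 CPM in WT3 and 1.33 to 5.37 in the rest, with Pdgfrb at 31.8 CPM in WT3. Microglial and endothelial markers summed to at most 2.65 CPM in any library, with C1qa, C1qb and Cldn5 at 0 in all of them. Reads of 4 Y-linked genes numbered 1111 in WT1, 1638 in WT2 and 2147 in KO3 and at most 1 elsewhere, so WT3 was also the only wild-type library without them, and for WT3 these differences cannot be told apart. Xist, the transcript of the inactive X chromosome, had 11438 reads in WT1, 10205 in WT2, 40863 in WT3, 22515 in KO1, 24927 in KO2 and 702 in KO3. WT1 and WT2 thus held both kinds of reads, and KO3, the only knockout library with Y-linked reads, had few of Xist. Values without WT3 are given beside those with all 6 libraries, and they rest on WT1 and WT2 as the only wild-type libraries. These were the most alike of the 15 pairs of libraries, with a chi-square of their counts over genes of 4.57 per degree of freedom where the other 14 pairs lay between 22.5 and 140.1 and the knockout pairs between 22.5 and 56.5. The part of this likeness in the counts and SEs without WT3 was not tested.

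Chaperone transcripts took up 1.74% of the counted reads in WT1 and 1.69% in WT2, 1.14% in WT3, and 1.47%, 1.37% and 1.49% in KO1, KO2 and KO3. The 3 knockout libraries thus lay between WT1 and WT2 on one side and WT3 on the other. Summed over the members, the level was 15324 ± 3323 CPM in wild type (SD, n = 3) and 14386 ± 915 in Ythdf2 -/- (SD, n = 3), a difference smaller than the spread among the wild-type libraries. Without WT3, the knockout sum was 83.5% of the mean of WT1 and WT2. In such bulk samples, fewer cells of a type and less RNA per cell cannot be told apart.

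**Figure D1:**
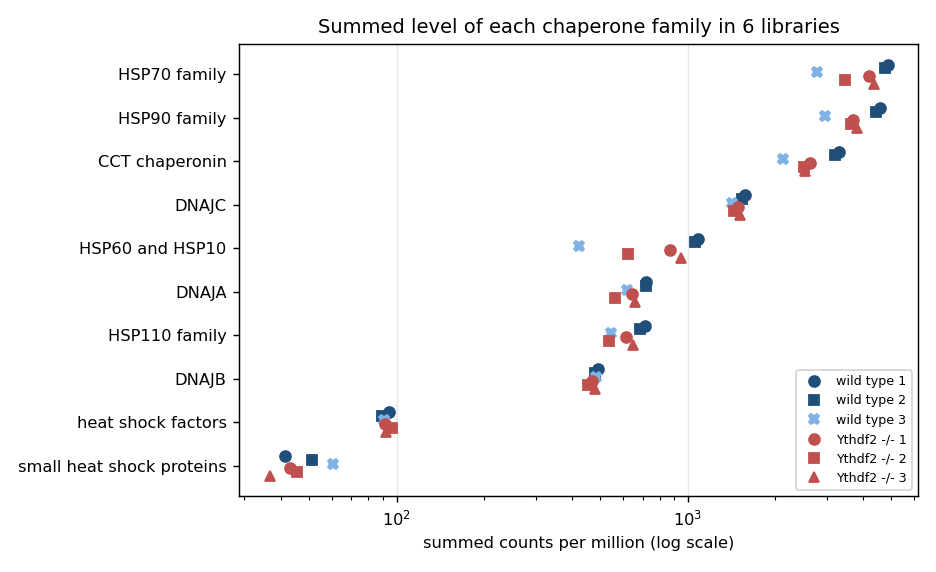
Summed level of each family in CPM (log axis) in the 6 libraries; each point is a library, blue for wild type and red for Ythdf2 -/-. Wild type 3 (light blue crosses) is the lowest library for the HSP70, HSP90, CCT, DNAJC and HSP60 and HSP10 families, and the heat shock factors lie within 89.3 to 96.3 CPM in all libraries.

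Compared per length, as CPM per kilobase of transcript (RPKM), the members spanned the range from no reads to 1301. Of the 83, 17 were above 100 RPKM on average, 36 lay between 10 and 100, 13 between 1 and 10, and 17 below 1. The highest was Hspa8, the constitutive cytosolic HSP70 (1301 ± 261 RPKM, SD over 6 libraries), followed by Hsp90ab1, the constitutive HSP90 (853 ± 107). Behind them came Hsp90aa1 (316 ± 47.7), Hspd1 for HSP60 (298 ± 98.4), Hsp90b1 for the endoplasmic reticulum paralogue GRP94 (293 ± 79.8), Hspa5 for the endoplasmic reticulum HSP70 BiP (235 ± 41.7) and Cct5 (231 ± 39.8). These last 5 overlapped within their spread. Hspa8 alone made up 15.8% to 19.1% of the members' reads in each library.

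The heat-inducible HSP70 genes were close to silent by the same measure, with 0.454 ± 0.201 RPKM for Hspa1a and 0.360 RPKM on average for Hspa1b. Hsf1, the master factor of the heat shock response, and Hsf2 lay within each other's spread, at 19.9 ± 2.31 and 20.0 ± 2.06 RPKM. Among the J-domain genes the highest were Dnaja1 (115 ± 9.34 RPKM), Dnajc8 and Dnajc7 (77.4 and 76.8), Dnaja2 (69.2 ± 9.58), a partner of Hspa8 like Dnaja1, and Dnajb6 (55.8 ± 4.37). Dnajb8 and Dnajc5g had no read in any library. These 2 belonged to the 13 members with too few reads to be tested, with Dnajb3, Dnajb7, Dnajb13, Dnajc22, Dnajc5b, Hspa12b, Hspb2, Hspb3, Hspb7, Hspb9 and Cct6b; several of them are known from testis, muscle or heart. The test therefore covered 70 members.

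No member passed an adjusted p of 0.05 in edgeR's quasi-likelihood test with all 6 libraries, and neither did any of the 13112 genes tested (0% called); the adjusted p of each of the 70 was 0.999. DESeq2 called 1 member, Hspb1, where it called 0.523% of all genes, limma-voom called 0 members and 0% of all genes, and limma-voom with sample quality weights called Hspb1 alone, where it called 1.15% of all genes. At an unadjusted p under 0.05 edgeR found 2 of 70 members higher in Ythdf2 -/- (2.86%, against 1.81% of all genes) and 2 lower (2.86%, against 1.82%). These shares are near the background. The groups did not overlap, on the higher side, for 6 members (8.57%, against 5.24% of all genes) and, on the lower side, for 3 (4.29%, against 4.92%). The median log2 fold change was -0.06 over the members and -0.01 over all genes.

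Without WT3 the numbers were larger throughout the transcriptome. Of 72 members then tested, 5 were higher at an unadjusted p under 0.05 (6.94%, against 8.03% of all genes) and 12 lower (16.7%, against 8.58%). None reached an adjusted p of 0.05, where 0.0151% of all genes did. For 12 members every knockout library lay above WT1 and WT2 (16.7%, against 18.8%), and for 28 every knockout library lay below both (38.9%, against 20.1%). The median log2 fold change of the members was then -0.11, and that of all genes 0.01. The members with the highest levels accounted for most of this: of the 29 with a mean of at least 100 CPM, 23 (79.3%) were lower in each knockout library than in WT1 and WT2, where 25.9% of the 2541 genes at that level were. WT3 was the lowest of all 6 libraries for 20 of those 29 (69.0%, against 38.4% of genes at that level).

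**Figure D2:**
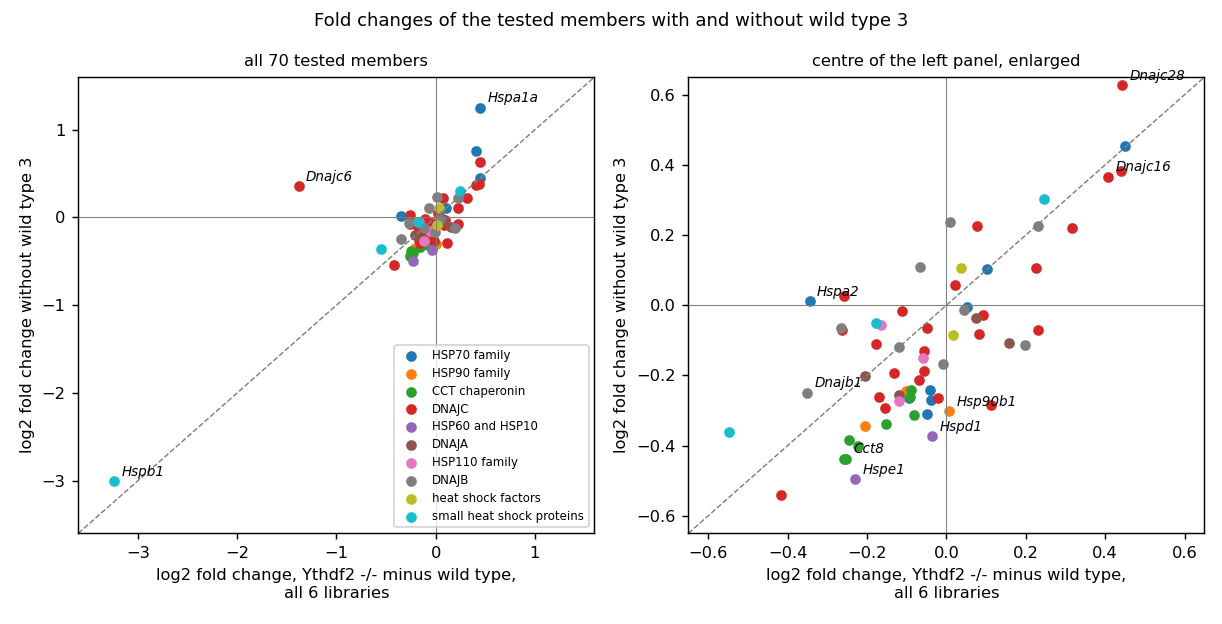
Log2 fold change of each tested member (Ythdf2 -/- minus wild type) with all 6 libraries on the x axis and without wild type 3 on the y axis, coloured by family; the right panel enlarges the centre of the left one, and the dashed line marks equal values. Hspb1 is at -3.24 and -3.01, Dnajc6 changes sign from -1.38 to 0.36, and the CCT genes lie below the line.

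The log2 fold change farthest from 0 among the tested members was that of Hspb1, which encodes the small heat shock protein HSP27 (GRCm38 chr5:135887919-135889563, 3 exons). It had 3.59, 4.20 and 5.95 CPM in WT1, WT2 and WT3 and 0.597, 0.740 and 0.0804 CPM in KO1, KO2 and KO3. In reads, this was 42, 55 and 65 against 7, 10 and 1, so it passed the filter on low counts through its wild-type reads, and it was not tested when at least 10 counts were required in every library. Every knockout library lay below every wild-type library. Any split of the libraries, such as by Y-linked reads, then gives the same order and is no separate result. The log2 fold change was -3.24 ± 0.64 (SE; adjusted p = 0.999 in edgeR, 2.24e-05 in DESeq2 and 0.0449 with sample quality weights). Over the fits that tested it, the log2 fold change ranged from -3.72 to -2.75, with adjusted p from 2.24e-05 to 0.99998, and without WT3 it was -3.01 ± 0.60 with an adjusted p of 0.153. Of its 50-base stretches, 48.8% also occur in the annotated pseudogene Hsp25-ps1, so some of these few reads may not be its own. The 6 astrocyte markers together were at 1730, 2105 and 6475 CPM in wild type and 2767, 1220 and 1693 in Ythdf2 -/-, and these sums overlapped. At an unadjusted p under 0.05, 1 of the 6 was lower and 0 were higher (1.82% and 1.81% of all genes). The lower one was Gfap, with 437, 625 and 3047 CPM in wild type and 127, 87.7 and 5.55 in Ythdf2 -/-. The others did not share its direction: the knockout mean was 108% of wild type for Aldh1l1, 117% for S100b, 115% for Slc1a2 and 97.2% for Gja1. For Aqp4 it was 30.7%, or 93.7% of the mean of WT1 and WT2. The part of the astrocyte markers in the Hspb1 result was not tested.

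The RefSeq promoter windows of GRCm38.p6, from 250 bases before to 50 bases after each start, covered 67 of the 83 members. Heat shock elements consist of alternating GAA and TTC units 2 bases apart, and the letters GAANNTTC (which read the same on both strands) were found in 15 of the 67 (22.4%) and in 9.04% of 27025 genes. Hspb1 held 2 such pairs upstream of its start, and both stretches are shown because they precede the gene with the fold change farthest from 0, the pairs in capitals.
Hspb1, chr5:135887791-135887820, plus strand: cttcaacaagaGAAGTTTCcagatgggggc
Hspb1, chr5:135887811-135887840, plus strand: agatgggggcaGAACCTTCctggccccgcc
Hspa1a, chr17:34972242-34972271, minus strand: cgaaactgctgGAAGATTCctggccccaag
Dnaja1, chr4:40722333-40722362, plus strand: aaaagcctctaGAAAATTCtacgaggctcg
Hspa1b held the same 30 bases as Hspa1a, at chr17:34959324-34959353 on the minus strand.

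The other tested small heat shock protein genes overlapped between genotypes. Hspb8, a partner of the co-chaperone Bag3, had 14.1, 19.5 and 23.9 CPM in wild type and 15.9, 11.03 and 12.5 in Ythdf2 -/- (log2 fold change -0.55 ± 0.26, and -0.36 without WT3). Hspb6 (HSP20) had 10.5, 15.1 and 16.4 CPM against 9.29, 17.1 and 10.7 (-0.18, and -0.05 without WT3). Hspb11, a subunit of intraflagellar transport despite its name, was the most abundant gene of the group per length (24.9 RPKM) and had 12.7, 11.8 and 13.7 CPM in wild type against 16.5, 15.9 and 12.9. Its log2 fold change was 0.25 ± 0.18, and 0.30 without WT3.

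The inducible genes of the HSP70 system did not share one direction. Hspa1a had 9, 6 and 22 reads in WT1, WT2 and WT3 and 17, 19 and 19 in KO1, KO2 and KO3. The groups overlapped only through WT3, and the log2 fold change was 0.45 ± 0.56 with it and 1.25 ± 0.41 without (adjusted p = 0.238). Its neighbour Hspa1b, whose start lies 12918 bp away on chromosome 17, had 3, 14 and 14 reads against 12, 9 and 22, with no separation (0.40, and 0.76 without WT3). Since 60.4% of the 50-base stretches of Hspa1a occur in Hspa1b as well, the division of reads between these genes is uncertain. Dnajb1, the inducible J-domain partner HSP40 (chr8:83608175-83612653), had 64.9, 65.7 and 79.5 CPM in wild type and 54.1, 58.9 and 51.8 CPM in Ythdf2 -/-. Its groups did not overlap, and its log2 fold change was -0.35 ± 0.14 (adjusted p = 0.999), or -0.25 ± 0.10 without WT3 (adjusted p = 0.286). Dnaja1 was likewise lower in each knockout library, at 411, 399 and 408 CPM against 359, 337 and 361 (log2 fold change -0.20 ± 0.12, adjusted p = 0.999). In this gene WT3 lay between WT1 and WT2, and leaving WT3 out gave the same -0.20 ± 0.10. Hsph1, an HSP110 exchange factor, had 151, 152 and 124 CPM against 138, 127 and 145, and the groups overlapped (log2 fold change -0.06, and -0.15 without WT3).

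A list of 11 heat-responsive members held Hspa1a, Hspa1b, Hspa8, Hsph1, Hspa4l, Dnajb1, Dnaja1, Hsp90aa1, Hspb1, Hspd1 and Hspe1. Several of these are abundant in unstressed cells, and Hspa8 is mainly constitutive, so the list does not stand for the inducible genes alone. Over the list edgeR gave 0 at an adjusted p under 0.05, and 2 lower (Hspb1 and Dnajb1; 1.82% of all genes) and 0 higher (1.81%) at an unadjusted p under 0.05. Without WT3, 1 was higher (8.03% of all genes) and 4 were lower (8.58%) at an unadjusted p under 0.05, and 8 of the 11, Hspa8 among them, lay lower in every knockout library than in WT1 and WT2 (20.1%). The median log2 fold change was -0.16 with all libraries and -0.25 without WT3. Of 12 heat-induced genes outside the members, some of them also co-chaperones, 0 passed an unadjusted p of 0.05 with all libraries (1.81% of all genes higher and 1.82% lower) and 0 an adjusted one, and the median was -0.14. Without WT3, 0 were higher and 4 lower at an unadjusted p under 0.05 (8.03% and 8.58% of all genes), 0 passed an adjusted p, and the median was -0.26. Stip1, which joins HSP70 to HSP90, had 283, 262 and 151 CPM in wild type against 206, 205 and 212 in Ythdf2 -/- (log2 fold change -0.16, and -0.39 without WT3). Hsf1 (45.2, 39.5 and 33.9 CPM against 41.4, 34.8 and 43.7) and Hsf2 (49.0, 49.8 and 56.7 against 49.5, 61.5 and 48.3) overlapped between genotypes, with log2 fold changes of 0.02 ± 0.17 and 0.04 ± 0.15; without WT3 these were -0.08 and 0.11.

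**Figure D3:**
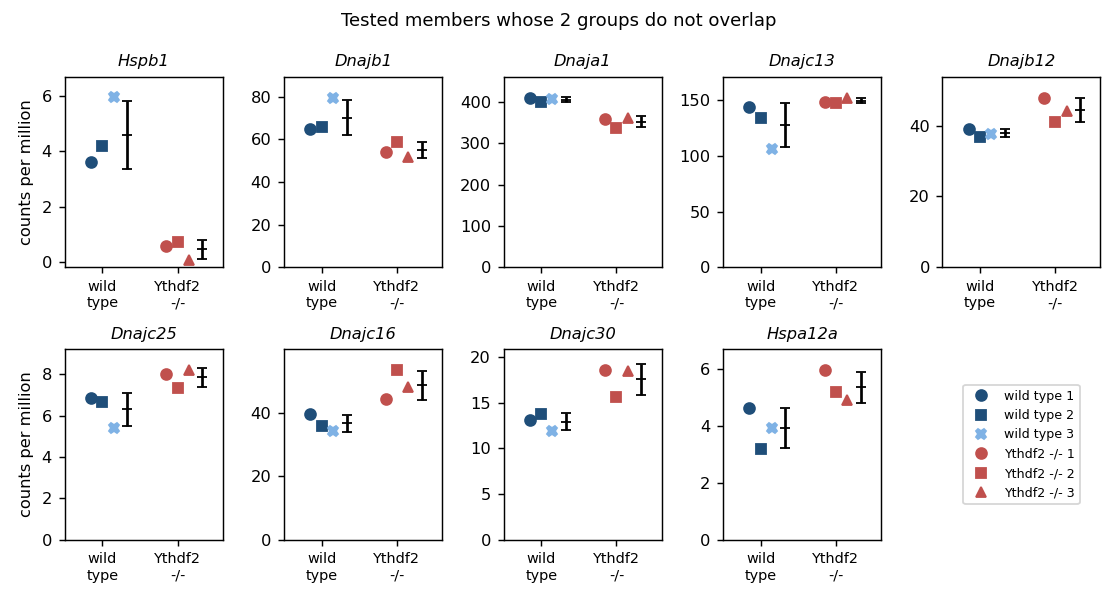
CPM of the 9 tested members whose wild-type (blue) and Ythdf2 -/- (red) libraries do not overlap, one panel a gene, with axes from 0 (a little below for Hspb1); black marks show mean and SD (n = 3). Hspb1, Dnajb1 and Dnaja1 are lower in Ythdf2 -/-, and Dnajc13, Dnajb12, Dnajc25, Dnajc16, Dnajc30 and Hspa12a are higher.

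On the higher side, both members with an unadjusted p under 0.05 were J-domain genes of the C class. Dnajc16, an endoplasmic reticulum membrane protein (chr4:141761998-141790644), had 39.5, 35.9 and 34.4 CPM in wild type and 44.3, 53.5 and 48.0 in Ythdf2 -/- (log2 fold change 0.41 ± 0.14, adjusted p = 0.999). Dnajc30, a mitochondrial protein encoded by a single exon (chr5:135064206-135065365), had 13.1, 13.8 and 11.9 CPM against 18.6, 15.6 and 18.4 (0.44 ± 0.17, adjusted p = 0.999). Both differences were nearly as large without WT3, at 0.37 ± 0.12 and 0.38 ± 0.15. Dnajc30 shares 436 exon bases with Bud23 on the opposite strand, and the strand setting of the counting is not given in the sources used here, so its reads may include those of Bud23.

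A further 4 members were higher in each knockout library at an unadjusted p over 0.05. Dnajb12, which works in quality control at the endoplasmic reticulum membrane, had 39.1, 36.8 and 37.6 CPM in wild type and 47.9, 40.9 and 44.3 in Ythdf2 -/- (log2 fold change 0.23 ± 0.12, and 0.23 without WT3). Dnajc13, an endosomal protein, had 144, 134 and 106 against 149, 148 and 152 (0.23 ± 0.15), and the difference was 0.11 ± 0.09 without WT3. Hspa12a, a divergent HSP70 (4.62, 3.20 and 3.94 CPM against 5.97, 5.18 and 4.91), and Dnajc25 (6.85, 6.64 and 5.40 against 8.02, 7.33 and 8.21) were lowly expressed, with log2 fold changes of 0.45 ± 0.26 and 0.32 ± 0.21, or 0.45 and 0.22 without WT3.

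The cytosolic chaperonin CCT showed 1 pattern across its subunits. Its ring has 8 different subunits (Tcp1, Cct2, Cct3, Cct4, Cct5, Cct6a, Cct7 and Cct8), and in any library their RPKM differed by no more than 2.20 times between the highest and the lowest. Cct5 had 509, 471 and 313 CPM in WT1, WT2 and WT3 and 396, 371 and 395 CPM in KO1, KO2 and KO3. All 8 subunits had this arrangement, with each knockout library below WT1 and WT2 (20.1% of all genes, and 25.9% of those with at least 100 CPM). For 7 of the 8 WT3 was the lowest library of all (34.4% and 38.4%). The summed family was at 3314, 3203 and 2130 CPM in wild type against 2631, 2500 and 2527 in Ythdf2 -/-. With all libraries no subunit had an unadjusted p under 0.05, and the family median was -0.19. Without WT3 the median was -0.36, and 6 of the 8 were lower at an unadjusted p under 0.05 (8.58% of all genes), the lowest for Cct8 (368 and 364 CPM against 279, 252 and 280; log2 fold change -0.44 ± 0.10, adjusted p = 0.180). A split of this arrangement by Y-linked reads follows from it and is no separate result. Among the libraries with such reads KO3 lay below WT1 and WT2 for all 8 subunits (42.9% of all genes). Among those without them KO1 and KO2 both lay above WT3 for 7 of 8 (41.5% of all genes). The direction thus depended on which wild-type library was taken. Cct6b, the testis relative of Cct6a, had 0.230 RPKM.

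**Figure D4:**
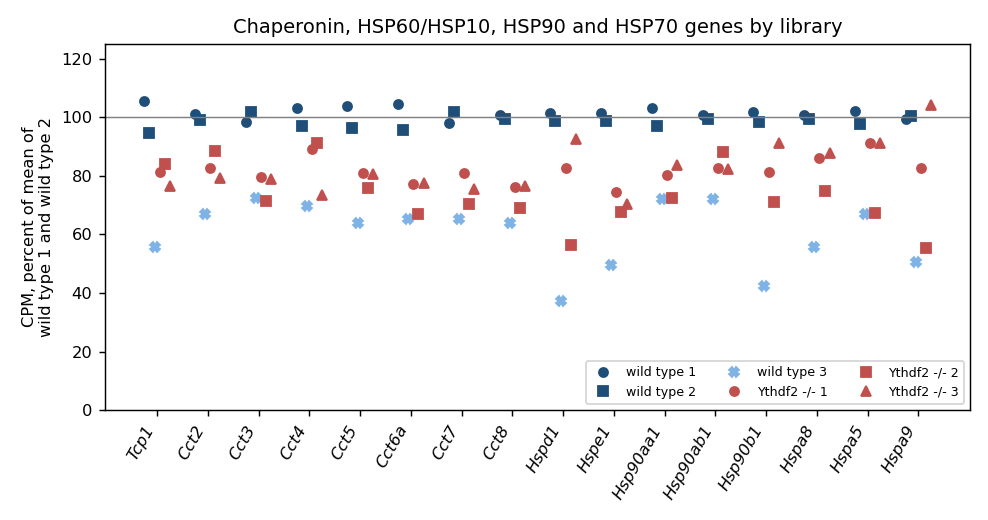
Level of each CCT subunit and of the abundant HSP60, HSP10, HSP90 and HSP70 genes in the 6 libraries, in percent of the mean CPM of wild type 1 and wild type 2 (grey line at 100). Ythdf2 -/- libraries (red) lie below the line except for Hspa9 in Ythdf2 -/- 3, and wild type 3 (light blue crosses) is the lowest point for all of the genes but Cct3.

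HSP60 and HSP10, the mitochondrial folding chamber, were the family with the lowest level in WT3 relative to WT1 and WT2. Hspd1 had 903, 877 and 332 CPM in wild type and 736, 501 and 823 in Ythdf2 -/-, and Hspe1 had 183, 178 and 89.4 against 135, 123 and 127. Their sum in WT3 was 39.4% of the mean of WT1 and WT2. With all libraries the log2 fold changes were -0.04 ± 0.41 and -0.23 ± 0.28. Without WT3 that of Hspe1 was -0.50 ± 0.09 (adjusted p = 0.151), the lowest unadjusted p of any member in that fit, and that of Hspd1 was -0.37 ± 0.22 (adjusted p = 0.433). The ratio of Hspd1 to Hspe1 per length was 1.62 in both WT1 and WT2, 1.22 in WT3 and 1.80, 1.35 and 2.13 in the knockout libraries. Pseudogene copies share 39.7% of the 50-base stretches of Hspd1 and 18.4% of those of Hspe1, and the genes overlap by 96 exon bases on opposite strands.

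These genes lie head to head on chromosome 1, with the outermost annotated start of Hspd1 95 bp from that of Hspe1. An element of 3 or more alternating units, which always includes the paired form above, was found in 4 of the 67 members (5.97%) and in 0.662% of all genes. The members were Hspd1, Hspe1, Dnajb6 and Hsph1, the last with its element after the start. The element of Hspd1 and Hspe1 is one stretch of DNA read on opposite strands, shown with the units in capitals. It lies 144 to 127 bases before a further annotated start of Hspd1, but after the outermost start used for the 95 bp. Dnajb6 is set beside it as another carrier, with groups that overlapped (117, 107 and 112 CPM against 103, 112 and 93.6).
Hspd1, chr1:55088053-55088082, minus strand: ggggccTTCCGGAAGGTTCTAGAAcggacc
Hspe1, chr1:55088053-55088082, plus strand: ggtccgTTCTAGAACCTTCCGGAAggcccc
Dnajb6, chr5:29735844-29735872, plus strand: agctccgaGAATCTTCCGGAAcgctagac

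Other mitochondrial members were also low in WT3. Hspa9, the mitochondrial HSP70 mortalin, had 659, 665 and 334 CPM in wild type and 548, 366 and 689 in Ythdf2 -/-, so that KO2 was nearly as low as WT3 and KO3 was the highest of all (log2 fold change -0.05, and -0.31 without WT3). Dnaja3 (76.8, 80.8 and 38.8 CPM against 80.3, 53.9 and 85.0), its J-domain partner, likewise had WT3 lowest, KO2 next and KO3 highest (0.16, and -0.11 without WT3). WT3 was the lowest library for 7 of the 9 mitochondrial members, where it was so for 34.4% of all genes. Their summed level was 1991, 1972 and 930 CPM in wild type and 1664, 1187 and 1892 in Ythdf2 -/-. Of 11 other genes of mitochondrial protein quality control, 0 had an adjusted and 0 an unadjusted p under 0.05 in edgeR (1.81% of all genes higher and 1.82% lower), and without WT3 both counts were also 0 (8.03% and 8.58% at an unadjusted p). Their median log2 fold change was 0.11 with all libraries and -0.03 without WT3. The HSP90 paralogue Trap1 had 167, 152 and 75.2 CPM against 151, 129 and 189 (0.25, and -0.03 without WT3). The protease Lonp1 had 121, 128 and 120 against 137, 136 and 148, with groups that did not overlap (0.19, and 0.17 without WT3).

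The 3 HSP90 genes were each lower in every knockout library than in WT1 and WT2 (20.1% of all genes, and 25.9% of those with at least 100 CPM) and lowest in WT3 (34.4% and 38.4%). Hsp90ab1 had 2456, 2427 and 1760 CPM in wild type and 2020, 2155 and 2011 in Ythdf2 -/-. Hsp90aa1, the more inducible cytosolic form, had 1095, 1031 and 766 against 852, 770 and 889. With all libraries their log2 fold changes were -0.10 ± 0.21 and -0.20 ± 0.20, and without WT3 -0.24 ± 0.14 and -0.34 ± 0.13 (adjusted p = 0.428 and 0.278). The ratio of Hsp90aa1 to Hsp90ab1 per length stayed between 0.314 and 0.392. Pseudogene copies share 47.5% of the 50-base stretches of Hsp90aa1.

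Hspa8, which among its other tasks strips clathrin from vesicles, had 3277, 3232 and 1812 CPM in wild type and 2806, 2437 and 2857 in Ythdf2 -/-. The log2 fold change was -0.04 ± 0.28, and -0.27 ± 0.16 without WT3 (adjusted p = 0.434). Its pseudogenes share 38.6% of its 50-base stretches. Hspa4, the most abundant HSP110 gene, had 493, 463 and 333 CPM against 409, 338 and 442, with KO2 beside WT3 at the low end (log2 fold change -0.12, and -0.27 without WT3). Dnajc6, auxilin, is the neuronal partner of Hspa8 in uncoating and differed most strongly in WT3 alone: 1.71, 1.603 and 13.4 CPM in wild type and 1.54, 2.89 and 1.93 in Ythdf2 -/-. Its log2 fold change was -1.38 with WT3 and 0.36 without. Neuron markers were raised in WT3 as well (above); their part in the Dnajc6 value was not tested.

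In the endoplasmic reticulum, Hspa5 had 706, 676 and 462 CPM in wild type against 631, 465 and 630 in Ythdf2 -/-, and Hsp90b1 had 1016, 982 and 422 against 811, 710 and 910. Dnajb11, the J-domain partner of BiP, had 95.2, 94.6 and 65.5 against 89.1, 67.6 and 97.0. In all of them WT3 was the lowest library and KO2 the next, and with all 6 libraries the log2 fold changes lay between -0.10 and 0.01. Without WT3 they were -0.26, -0.30 and -0.17, none at an unadjusted p under 0.05. By contrast Dnajb9, the stress-induced J-domain protein ERdj4, was highest in WT3 (29.6, 33.7 and 44.0 CPM against 36.5, 29.5 and 36.4), with a log2 fold change of -0.07 that became 0.11 without WT3.

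The endoplasmic reticulum stress element, CCAAT and CCACG separated by 9 bases, was searched on both strands and found in 3 of the 67 members (4.48%) and in 0.137% of all genes. The carriers were Hspa5, Hsp90b1, which had 2 of them, and Dnajc3, a J-domain inhibitor of the kinase PERK with 114, 111 and 98.4 CPM in wild type and 101, 85.6 and 108 in Ythdf2 -/-. The stretches of all 3 carriers are shown, with the element in capitals. Hspa5 and Hsp90b1 had WT3 lowest and KO2 next, as did Dnajb11, which held no such element. In Dnajc3 KO2 lay below WT3. The part of the element in these levels was not tested.
Hspa5, chr2:34772020-34772048, plus strand: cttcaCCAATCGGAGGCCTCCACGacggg
Hsp90b1, chr10:86705633-86705661, minus strand: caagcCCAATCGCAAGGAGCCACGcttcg
Hsp90b1, chr10:86705528-86705556, minus strand: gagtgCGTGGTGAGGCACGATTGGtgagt
Dnajc3, chr14:118937822-118937850, plus strand: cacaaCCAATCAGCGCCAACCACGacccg
The second element of Hsp90b1 reads in the opposite direction to the first.

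Of 23 other genes of endoplasmic reticulum folding and the unfolded protein response, 22 were tested in edgeR, 0 had an adjusted p under 0.05, and at an unadjusted p under 0.05 there were 1 higher and 0 lower (1.81% and 1.82% of all genes). Without WT3, 0 had an adjusted p under 0.05, 1 was higher and 4 were lower at an unadjusted p under 0.05 (8.03% and 8.58% of all genes), and 10 lay lower in every knockout library than in WT1 and WT2 (20.1%). The median log2 fold change was -0.05 with all libraries and -0.12 without WT3. The gene higher with all libraries was Sil1, the nucleotide exchange factor of BiP, with 42.4, 45.3 and 37.2 CPM in wild type and 58.8, 49.4 and 55.9 in Ythdf2 -/- (log2 fold change 0.39), and 0.32 without WT3. The lectin chaperones Canx (1084, 1067 and 888 against 974, 806 and 1220) and Calr (776, 740 and 455 against 700, 532 and 736) overlapped between genotypes, with log2 fold changes of -0.02 and -0.0020 that were -0.11 and -0.21 without WT3. Of 27 co-chaperone and prefoldin genes, 0 had an adjusted p under 0.05, and 0 were higher and 1 was lower at an unadjusted p under 0.05 (1.81% and 1.82% of all genes), namely Pfdn2, a subunit of prefoldin, which delivers actin and tubulin to CCT. It had 27.5, 27.3 and 26.1 CPM in wild type and 22.3, 21.7 and 21.1 in Ythdf2 -/- (log2 fold change -0.31), and -0.34 without WT3. Without WT3, 0 were higher and 11 lower at an unadjusted p under 0.05 (8.03% and 8.58% of all genes), and 0 had an adjusted p under 0.05. For 18 of these 27 genes every knockout library lay below WT1 and WT2 (20.1% of all genes), and the median log2 fold change was -0.17 with all libraries and -0.26 without WT3. By CPM, which is not scaled to length, the highest were Bag6 (246, 250 and 298 CPM against 242, 294 and 247; log2 fold change -0.02, and 0.07 without WT3) and St13, the HSP70-interacting protein Hip (291, 274 and 232 against 258, 272 and 249; -0.03, and -0.12 without WT3).

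Several J-domain genes differed mainly in WT3. Dnajc9, a J-domain protein that binds histones, had 117, 106 and 30.5 CPM in wild type and 80.2, 107 and 86.3 in Ythdf2 -/-. Dnajb5 had 60.6, 55.2 and 23.98 against 50.4, 44.6 and 65.4. In both, WT3 stood alone at the low end and the other 5 libraries overlapped, with log2 fold changes of 0.11 and 0.20 that became -0.29 and -0.11 without WT3. Dnajc7, a co-chaperone of both HSP70 and HSP90, was instead highest in WT3 (167, 172 and 242 CPM against 174, 148 and 162; log2 fold change -0.26, and -0.07 without WT3). Over the 70 tested members WT3 was the lowest library for 36 (51.4%, against 34.4% of all genes) and the highest for 15 (21.4%, against 33.8%). The knockout sums of the DNAJB family and of the heat shock factors were 96.3% and 101% of the mean of WT1 and WT2, and 96.5% and 102% of the mean of all 3 wild-type libraries.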

How the data were processed

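The authors deposited, for each input library, raw read counts per gene and a table of expected counts with gene lengths; the submitters' processing notes name mm10, Bowtie2 2.2.9, RSEM 1.2.15 and featureCounts, and the study's methods name TopHat and Cuffnorm. Libraries were made with a stranded mRNA kit. The deposited raw counts were tested here, and only the lengths were taken from the expected count tables, whose sums were 1.97% to 2.40% of the raw counts. Genes passing edgeR's filterByExpr were normalised by TMM (factors 0.988 to 1.03) and tested with edgeR 4.0.16 (quasi-likelihood, genotype only, Benjamini-Hochberg adjustment over all genes), with the code checked on simulated data. DESeq2 1.42.0 and limma 3.58.1 were alternatives, as were other size factors and filters, a replicate block, a term for Y-linked reads and leaving out each library. CPM is the count scaled to 1000000 reads of TMM-adjusted depth, and RPKM divides it by length in kilobases. Gene coordinates, exon overlaps and promoters came from RefSeq, and shared 50-base stretches from GENCODE M21. Named genes were key chaperones, the 2 highest per family, up to 12 by unadjusted p under 0.05, up to 8 with separated groups, 5 that differed most in WT3 and the leading genes of each list, of which 1 is not reported here. Members, lists and rules were chosen with earlier results of these data known.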

Additional observations from a re-analysis of the deposited data

How the results depend on the processing

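Of 46 named genes, 22 kept their direction under each of the 14 alternatives that tested them, among them Hspb1, Dnajb1, Dnaja1, Dnajc16 and Dnajc30, but 3 (Hspb1, Hspa1a and Hspa1b) were not tested with at least 10 counts in every library; the cause of the changes below was not tested. Hspb1 passed the adjusted threshold with DESeq2 and with sample quality weights (1 member each, from 0, against 0.523% and 1.15% of all genes). Lower members at an unadjusted p under 0.05 numbered 4 of 81 with DESeq2 (4.94%, against 3.07% of all genes), 1 of 67 with at least 10 counts in every library (1.49%, against 1.67%), 17 of 70 with quality weights (24.3%, against 13.4%) and 4 of 70 with the Y-linked term (5.71%, against 5.86%). Higher members numbered 8 with quality weights (11.4%, against 14.7%), 3 with the Y-linked term (4.29%, against 5.19%) and 1 without a filter (1.23%, against 1.5%). The small heat shock protein median, -0.36 over 4 genes and -0.21 without WT3, was 0.082 with DESeq2 and 0.10 without a filter, where it also took in 4 genes with too few reads for the test. The DNAJB median of -0.0093 became -0.10 with quality weights and with the Y-linked term, which moved DNAJC from -0.050 to 0.038 and HSP70 from 0.0067 to 0.16.

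The log2 fold change of Ythdf2 passed the adjusted threshold at -2.66 with DESeq2 and with at least 10 counts, -2.67 with RLE factors, -2.61 with quality weights, -2.64 without a filter and -2.75 with the Y-linked term. The replicate numbers did not pair the samples (correlations of same-numbered deviations -0.248, -0.244 and -0.394). With the replicate block, 0 members were higher and 1 lower at an unadjusted p under 0.05 (0.708% and 0.783% of all genes), and Hspa8, Hspd1 and Calr stood at 0.0064, 0.053 and 0.021. They were 0.016, 0.083 and 0.031 with limma-voom. Hsp90b1 was -0.0012 with RLE factors, and Dnajb11 0.00017 and Calr 0.0058 without a filter. With quality weights, Hsp90b1 was -0.26, Hsf1 -0.011, Dnajc6 0.058, Dnajc9 -0.35 and Dnajb5 -0.10. With the Y-linked term, Hspa8 was 0.17, Hspa5 0.058, Hspa9 0.26, Hspd1 0.39, Hspe1 0.0089, Hsph1 0.018, Hsf2 -0.029, Tcp1 0.093, Cct2 0.013, Dnajb11 0.15, Hspa4 0.026, St13 0.0077, Canx 0.094, Calr 0.20 and Stip1 0.041.

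Leaving out each library in turn gave 0 to 5 higher and 1 to 12 lower members at an unadjusted p under 0.05 (0.905% to 8.03% and 0.897% to 8.58% of all genes), and 7 to 12 and 4 to 28 with separated groups (7.25% to 18.8% and 7.15% to 20.1% of all genes), each highest without WT3. Medians ranged from -0.072 to 0.023 for DNAJB and from -0.071 to 0.035 for DNAJC, and Ythdf2 from -2.78 to -2.54. Genes that changed sign ranged from -0.044 to 0.76 (Hspa1b), -0.27 to 0.10 (Hspa8), -0.26 to 0.045 (Hspa5), -0.31 to 0.17 (Hspa9), -0.30 to 0.21 (Hsp90b1), -0.37 to 0.18 (Hspd1), -0.15 to 0.0018 (Hsph1), -0.084 to 0.12 (Hsf1), -0.072 to 0.11 (Hsf2), -0.31 to 0.10 (Tcp1), -0.26 to 0.011 (Cct2), -0.17 to 0.14 (Dnajb11), -0.47 to 0.0014 (Hspb6), -1.82 to 0.36 (Dnajc6), -0.29 to 0.42 (Dnajc9), -0.11 to 0.43 (Dnajb5), -0.10 to 0.073 (Bag6), -0.12 to 0.040 (St13), -0.19 to 0.13 (Canx), -0.21 to 0.14 (Calr), -0.026 to 0.46 (Trap1) and -0.39 to 0.0070 (Stip1). The 2 length columns were identical, so using the other changed nothing. Depth limits the members below 1 RPKM, such as Hspa1a with 6 to 22 reads.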
